A study of Mus musculus with 2 samples.

Results

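The regions described here are CTCF peaks of mouse fetal liver that stood in the conservative list of reproducible peaks and had no counterpart in the optimal list. They were chosen by their presence in the conservative list and the lack of any optimal summit within 100 bp on the same chromosome, on chromosomes 1 to 19. The rule gave 5074 conservative-only peaks of 48123 conservative peaks on those chromosomes, or 10.5% (95% Wilson interval 10.3 to 10.8). On the same chromosomes 43049 peaks stood in both lists and 6742 stood in the optimal list alone.

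Chromatin was taken from livers of B6NCrl mouse embryos at day 14.5, of both sexes, which had been pooled over several dissections and pulverised. The 2 libraries, immunoprecipitated with an antibody to CTCF and labelled as biological replicates 1 and 2, form 1 group and come from 1 biosample, with no second tissue, age or genotype to compare. Their spread (SD, n = 2) may therefore be technical. A pool of whole livers holds erythroid, hepatic, myeloid and endothelial cells together, and a peak cannot be assigned to any of them.

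CTCF is a zinc finger protein that binds a long, conserved DNA motif and, with the cohesin ring, sets the ends of chromatin loops and many domain borders. Pairs of motifs that point towards each other are favoured at loop ends. The irreproducible discovery rate (IDR) compares the ranks of the same peaks in a pair of peak lists and keeps those whose ranks go together. In common use the conservative list compares the true replicates and the optimal list may come from random subsets of the pooled reads, so that a peak can pass one comparison and miss the other.

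The core CTCF motif, 14 positions long, was sought within 50 bp of each summit on both strands with at most 2 mismatches. Sequences of conservative-only peaks that carry it are shown so that the letters beneath strong, isolated and blood-gene peaks can be compared. Each is 30 bases long, 5′ to 3′, from GRCm38 (mm10) on the strand named, and capitals mark the matched motif.
Fcgr1 intron, chr3:96287422-96287451, minus strand, 2 mismatches, signal 249: gagaagggACAATAGAGGGCGCtagtgtgc
Ccdc59 promoter, chr10:105841009-105841038, plus strand, 0 mismatches, signal 120: gccgagttCCACCAGGGGGCGCgctgacag
Exoc6 intron, chr19:37602574-37602603, plus strand, 1 mismatch, signal 65.8: cgtttctgCCCCTAGAGGGCACtgtttctt
Stab2 upstream region, chr10:87020898-87020927, minus strand, 1 mismatch, signal 35.6: atgaagctCCAGCAGGGGGTGCcagccgtt
Ireb2 promoter, chr9:54897293-54897322, minus strand, 2 mismatches, signal 33.5: cctgcatgCCAGAAGAGGGCATcagatccc
Mecom promoter, chr3:30508488-30508517, minus strand, 1 mismatch, signal 25.1: ccgagtgaCCCCCAGGGGGCGGgctgccgg
Elavl2 distal region, chr4:90861011-90861040, minus strand, 1 mismatch, signal 23.9: cgaattagCCACAAGGGGGCAGagattgta
Isolated region distal to Gpm6a, chr8:55398512-55398541, minus strand, 0 mismatches, signal 15.8: caaaccagCCACTAGAGGGCACagacatta

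Signal, the authors' value per peak from their caller, together with the replicate ranks belongs to the measures behind the 2 lists, so it is given as a description without a test. Conservative-only peaks had a median signal of 19.4, with the central 90% between 7.29 and 33.1 and a range of 5.17 to 249. The median was 20.2 for optimal-only peaks and 84.9 for peaks in both lists. Conservative-only peaks thus lay at the weak end of the conservative list, beside the optimal-only peaks in level. Every one of the 5074 was identical in interval and summit to a peak of the pooled list of 300000, where their median rank was 50732. As many as 2894 ranked beyond position 49129, which is the full length of the conservative list, and 435 ranked beyond 100000. The capped score reached 1000 in 8.57% of them, against 23.9% of optimal-only peaks and 79.5% of peaks in both lists.

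In the separate lists of the replicates, a peak of replicate 1 had its summit within 100 bp in 86.6% of conservative-only peaks and a peak of replicate 2 in 81.3%. Both replicates had one at 3691 sites (72.7%). Measured by overlap of intervals in place of summits, both replicates covered 97.8% of conservative-only peaks and 82.4% of optimal-only peaks. Relative signal is defined here as a replicate's signal at the site over a base, the median of its 49129 strongest peaks. It was taken only where that replicate had a summit within 100 bp, at 4396 conservative-only sites in replicate 1 and 4123 in replicate 2. Its median over those sites was 0.321 in replicate 1 and 0.246 in replicate 2, a mean of 0.284 ± 0.0534 (SD, n = 2). Peaks in both lists stood at 1.22 and 1.20, and optimal-only peaks at 0.235 and 0.303.

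Agreement of ranks between the replicates, which IDR compares in making such lists, set the conservative-only peaks apart from the optimal-only peaks, but less from peaks in both lists. By level of rank the conservative-only peaks lay well behind peaks in both lists. Ranks ran from 4818 to 74398 (median 49841) at the 4396 sites with a replicate 1 summit and from 12630 to 68069 (median 51153) at the 4123 with a replicate 2 summit. At the 3691 sites with both, the ranks were within 2-fold of each other in 99.9%, with a median fold of 1.20. Only 5 sites had the better rank in replicate 1 by more than 2-fold, and 0 in replicate 2. Among 4542 optimal-only sites the ranks were within 2-fold at 29.4%, better in replicate 2 by more than that at 46.0% and better in replicate 1 at 24.5%. At 42025 both-list sites with both summits, the ranks were within 2-fold in 91.3%, with a median fold of 1.32. Among sites with a summit in both replicates, most conservative-only and most both-list peaks thus had similar ranks in replicate 1 and in replicate 2. Most of the 4542 optimal-only sites with both summits were better placed in 1 of these replicate lists by over 2-fold.

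**Figure D1:**
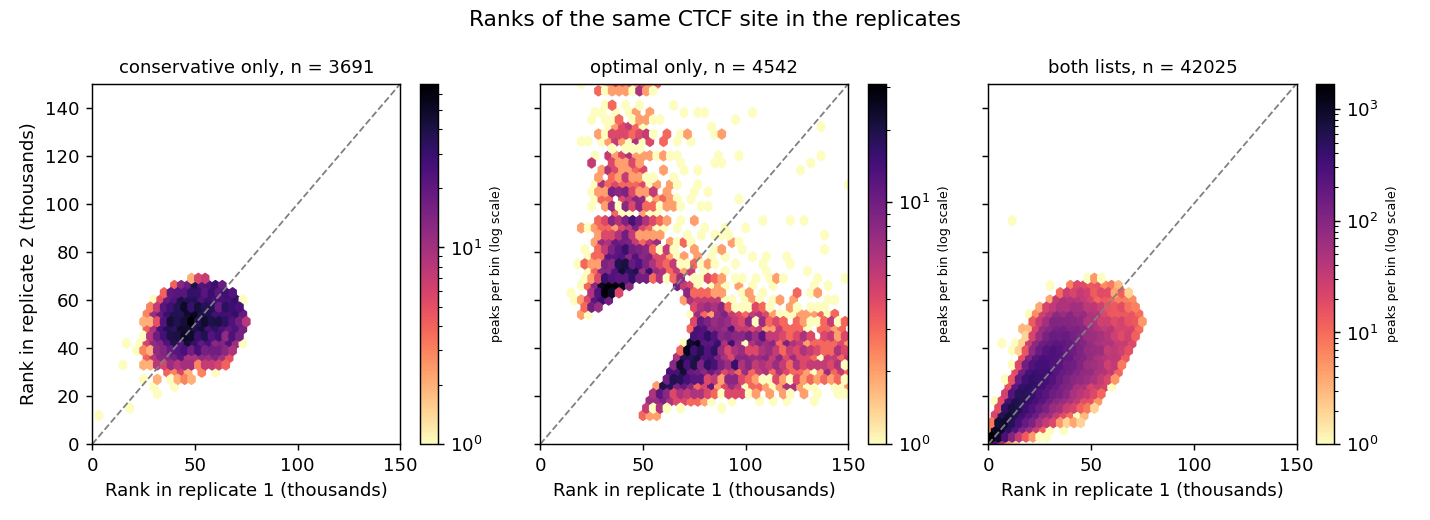
Rank of each site in replicate 1 (x axis, in units of 1000) and replicate 2 (y axis, in units of 1000), with 1 panel per class of peak, colour for the number of peaks per bin on a log scale and a dashed line of equal rank. Only sites with a summit of both replicates within 100 bp are drawn, and ranks beyond the axes are not drawn. Conservative-only sites form 1 compact cloud around the line, while optimal-only sites lie in arms on either side of it. Of the both-list sites, 91.3% have ranks within 2-fold of each other.

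The strongest conservative-only peak, at chr3:96287345-96287505 in an intron of Fcgr1, which encodes a high-affinity receptor for IgG, had a signal of 249. Its relative signal was 4.96 in replicate 1 and 2.24 in replicate 2, both far above the class medians. A weaker optimal peak, of signal 72.3, had its summit 248 bp away. The next, at chr10:105840886-105841108, lay 63 bp upstream of the start of Ccdc59 and within an intron of Mettl25, had a signal of 120 and relative signals of 1.62 and 1.76, and carried a motif with 0 mismatches. An optimal summit of signal 90.6 was 361 bp away.

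Chek2, which encodes a kinase of the DNA damage checkpoint, had a conservative-only peak of signal 111 at 86 bp upstream of its start, with relative signals of 0.626 and 1.20. Rasal1, which encodes a GTPase-activating protein for Ras, had one of 99.9 in its 5′ UTR, with a relative signal of 1.59 in replicate 1 and no replicate 2 summit within 100 bp. An intergenic peak of 94.1, 68516 bp from Smox (spermine oxidase), was the mirror case, with 1.65 in replicate 2 and no summit in replicate 1. Ift140, a gene of intraflagellar transport, had a promoter peak of 88.4 with relative signals of 1.89 and 0.644. These 6 strongest peaks all lay 207 to 589 bp from an optimal summit, close to but apart from its interval. The optimal neighbour was stronger beside Chek2 (172) and the intergenic peak (122), about level beside Rasal1 (99.7) and weaker beside Ift140 (66.7).

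The remaining 4 of the top 10 stood 2543 bp or more from an optimal summit. They were the promoter of Taf6l, a subunit gene of a histone acetyltransferase complex (signal 66.5), an intron of Exoc6, which encodes an exocyst subunit needed for iron uptake by red cell precursors (65.8), the promoter of Mdga1, a neural cell adhesion gene (57.2), and an intergenic site 26818 bp from Spdye4c (55.1). Taf6l and Mdga1 were stronger in replicate 1, at relative signals of 1.70 against 0.391 and 1.27 against 0.403. Exoc6 was stronger in replicate 2, at 1.14 against 0.756. At the other end, the 3 weakest conservative-only peaks had signals of 5.17 to 5.18, in introns of Pdzd2 and Gm31641 and in a coding exon of Anks6, and only the last had a summit in a replicate list, at a relative signal of 0.237 in replicate 1.

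**Figure D2:**
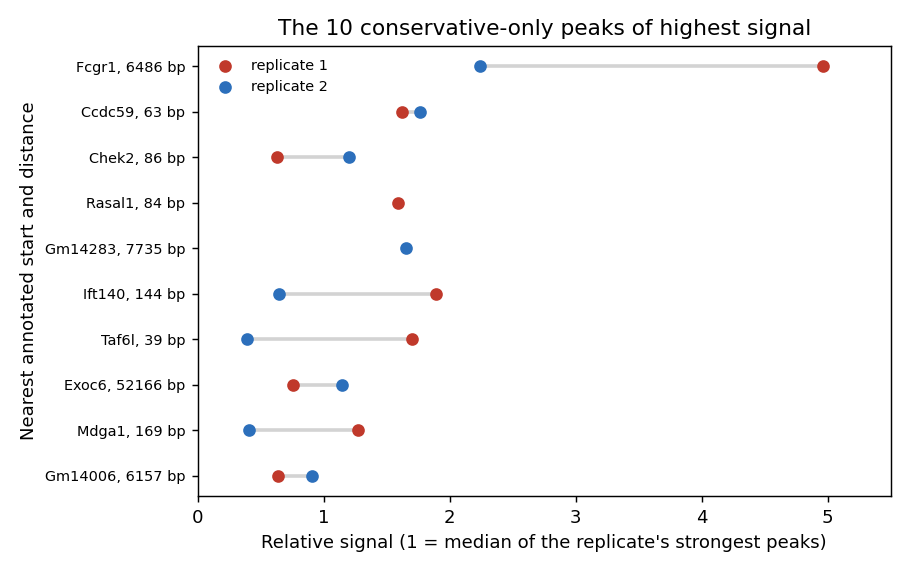
Relative signal (x axis, 1 being the median of a replicate's 49129 strongest peaks) of the 10 strongest conservative-only peaks, named by the nearest annotated start of any gene type and its distance in bp, with 1 point per replicate and a grey line between them. The Fcgr1 site stands at 4.96 and 2.24, the Ccdc59 site has nearly equal values, and the sites beside Rasal1 and Gm14283 have a point in 1 replicate alone.

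The 100 bp limit of the rule fell in an empty stretch. All 43049 peaks in both lists had exactly the same summit in each, at a distance of 0, and 0 conservative peaks had their nearest optimal summit at 1 to 100 bp. The nearest conservative-only peaks were 199 bp from an optimal summit, a distance shared by 63 of them. The strongest of these had signals of 32.8, 26.1 and 23.6, at chr1:92956843-92957158, chr6:66535510-66535825 and chr13:65240783-65241098. The weakest conservative peaks inside the limit, all at a distance of 0, had signals of 5.19, 5.19 and 5.21. Strongest peaks on one side and weakest on the other do not compare signal across the limit. The median distance was 4935 bp and the largest 1549716 bp.

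Of the conservative-only peaks, 506 (9.97%, interval 9.18 to 10.8) had an interval that overlapped an optimal interval, with summits 199 to 301 bp apart. Their median signal was 10.6, against 19.9 for the 4568 separate peaks, and it was below that of the optimal neighbour in 94.5% of pairs. The neighbours had a median signal of 41.9, and 96.0% of them were in the conservative list as well. A core motif lay at 12.3% (9.68 to 15.4) of the overlapping conservative-only summits and at 59.7% (55.4 to 63.9) of their neighbours' summits. By position and signal, the overlapping peaks were mostly weak peaks beside a stronger one that both lists kept. The score was nevertheless at its cap of 1000 in 38.5% of them, against 5.25% of separate ones.

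The replicate lists gave these pairs unlike numbers of summits. A replicate 1 summit stood within 100 bp of 63.6% of the overlapping peaks and a replicate 2 summit within 100 bp of 17.6%, although 96.4% of the intervals overlapped peaks of both. The neighbour had its own summit in replicate 1 in 84.0% and in replicate 2 in 88.5% of pairs. Both summits of the pair were called separately in 48.8% of pairs in replicate 1 and in 7.91% in replicate 2. Among separate conservative-only peaks the shares with a summit were 89.2% in replicate 1 and 88.3% in replicate 2.

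One such pair, between the optimal summit and the conservative-only summit upstream of Crb2, is shown to give the spacing and the place of the motif. The stretch is chr2:37771920-37772185 (mm10), 266 bases of intergenic sequence 5′ to 3′ on the plus strand, and capitals mark a core motif with 0 mismatches that reads on the minus strand. The optimal summit, with a signal of 342, is base 31 and falls within the motif, which spans bases 18 to 31. The conservative-only summit, with a signal of 12.9 and a best match of 5 mismatches, is base 236, 205 bp away, and lies 4094 bp upstream of the start of Crb2.
Pair upstream of Crb2: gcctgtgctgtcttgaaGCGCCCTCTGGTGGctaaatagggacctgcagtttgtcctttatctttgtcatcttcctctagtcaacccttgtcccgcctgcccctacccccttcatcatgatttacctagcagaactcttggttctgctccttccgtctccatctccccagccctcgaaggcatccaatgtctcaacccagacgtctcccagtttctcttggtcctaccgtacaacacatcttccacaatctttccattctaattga

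**Figure D3:**
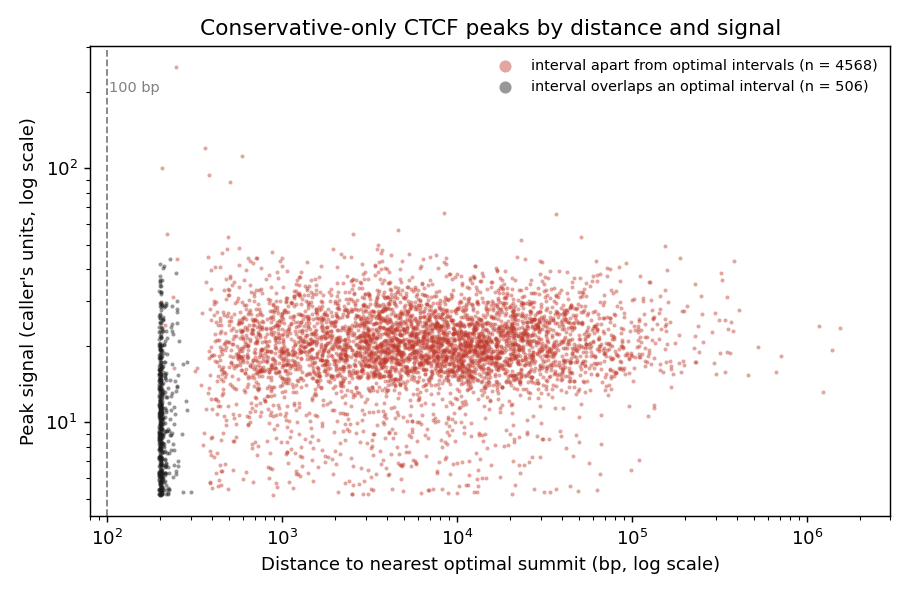
Signal of each conservative-only peak (y axis, log scale, the caller's units) against the distance from its summit to the nearest optimal summit (x axis, bp, log scale), in black where the interval overlaps an optimal interval and in red where it does not. The 506 overlapping peaks form a column at 199 to 301 bp that reaches down to the lowest signals, the 4568 separate peaks spread up to 1549716 bp around their median of 19.9, and the area at and below 100 bp (dashed line) is empty.

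Motif and promoter shares were tallied by distance to the nearest optimal summit. From 199 to 316 bp, 12.4% of 526 conservative-only peaks had a motif and 38.8% lay at a promoter. Between 316 and 1000 bp the shares were 27.1% and 54.0% of 550 peaks. From 1000 to 5000 bp they were 42.5% and 29.8% of 1472, and beyond 20000 and up to 100000 bp they were 48.5% and 23.1% of 889. Among the 37 peaks more than 200 kb from any optimal summit, 28 had a motif (75.7%, 59.9 to 86.6) and 3 lay at a promoter. The motif share was thus lowest beside an optimal peak and highest in isolation.

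Of all conservative-only summits, 31.5% (30.3 to 32.8) lay within 1 kb of an annotated transcript start, here called promoter. A further 5.54% (4.94 to 6.20) lay in exons, 37.5% (36.2 to 38.8) in introns and 25.4% (24.2 to 26.6) between genes. The promoter share was 26.6% (25.5 to 27.6) among optimal-only peaks and 21.4% (21.0 to 21.8) among peaks in both lists, and the 3 intervals did not overlap. These shares were not matched for signal. In each signal class below 25, the conservative-only interval overlapped those of both other classes. At 15 to 20 the shares were 26.4% for conservative-only, 27.0% for optimal-only and 29.7% for both-list peaks. In the classes from 25 to 40 the conservative-only interval lay above the others. At 30 to 40 the shares were 31.5% (26.9 to 36.6), 22.6% (19.7 to 25.8) and 22.3% (21.0 to 23.5). Intergenic summits made up 27.7% of optimal-only peaks and 33.5% of peaks in both lists. The intervals cover counting error only, and no test was run between the classes.

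**Figure D4:**
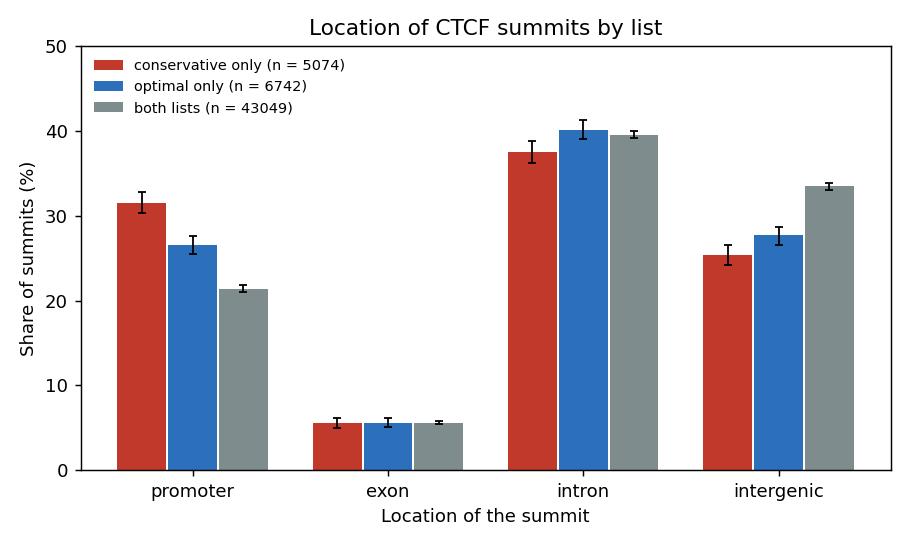
Share of summits (y axis, percent) at promoters, in exons, in introns and between genes for conservative-only, optimal-only and both-list peaks, with bars for the 3 classes and 95% Wilson intervals for counting error. The promoter bar is 31.5% for conservative-only, 26.6% for optimal-only and 21.4% for both lists, and the exon bars stand between 5.54% and 5.62%. The classes are not matched for signal.

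Within promoters, conservative-only summits were on the transcribed side of the nearest start in 52.5% (50.1 to 54.9), against 43.7% (42.7 to 44.7) of both-list promoter summits and 55.5% (53.2 to 57.8) of optimal-only ones. Protein-coding starts on both strands flanked 9.62% (8.28 to 11.2) of the promoter summits, compared with 6.61% (6.12 to 7.13) in both lists and 9.82% in optimal-only peaks. The median distance from a summit to the nearest start was 3771 bp for conservative-only, 4880 bp for optimal-only and 5597 bp for both-list peaks. On both measures of the promoter summits the conservative-only peaks stood nearer to the optimal-only peaks than to the shared ones.

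The core CTCF motif was present at 39.3% (38.0 to 40.7) of conservative-only summits, 48.5% (47.3 to 49.7) of optimal-only summits and 74.2% (73.8 to 74.6) of summits in both lists. In windows of the same size moved 1 kb to either side of conservative-only summits it was present in 3.27%, so the CTCF label had this mark at part of the peaks, and the rest had no match by this measure. A match with 0 mismatches stood at 1.16% of conservative-only, 3.52% of optimal-only and 11.5% of both-list summits. The middle of the motif lay a median of 12.5 bp from the conservative-only summit, 10.5 bp from the optimal-only summit and 6.50 bp from the both-list summit. No match means only that those letters were not in the window.

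Both shares moved with the replicate used to pick sites. Of the 2096 conservative-only sites among the 49129 strongest peaks of replicate 1, 35.1% (33.1 to 37.2) lay at promoters and 42.1% had a motif. Of the 1724 among those of replicate 2, 26.3% (24.3 to 28.5) and 54.6% did. Optimal-only peaks moved the same way and further, from 42.8% at promoters and a motif at 684 of 2013 by replicate 1 to 10.3% (9.25 to 11.4) and 72.4% by replicate 2. By replicate 1 the conservative-only peaks thus had fewer promoters and more motifs than optimal-only peaks, the reverse of the order over all sites. Peaks in both lists varied little, with 21.4% and 20.2% at promoters.

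The motif share followed signal. It was 7.84% (5.81 to 10.5) for conservative-only peaks of signal 5 to 10, 20.8% for 10 to 15, 39.8% (37.4 to 42.2) for 15 to 20, 47.3% (44.5 to 50.1) for 20 to 25 and 56.3% (51.1 to 61.4) for 30 to 40. Peaks in both lists of signal 15 to 20 had 39.0% (36.2 to 41.9) and those of 20 to 25 had 49.6% (47.4 to 51.8), which are within the counting error of the conservative-only shares. Optimal-only peaks had higher shares than conservative-only peaks from a signal of 20 upwards, with intervals that did not overlap. Theirs were 53.8% (51.2 to 56.3) for 20 to 25, 61.9% (58.5 to 65.1) for 25 to 30, where conservative-only peaks had 54.5% (50.6 to 58.3), and 68.1% (64.6 to 71.4) for 30 to 40. At 40 and over a motif lay at 41 of 81 conservative-only peaks (50.6%, upper bound 61.2), 81.5% (77.8 to 84.7) of optimal-only peaks and 80.4% of both-list peaks. That class has no upper limit and does not match the classes for signal: the median signal in it was 44.0 for conservative-only, 49.0 for optimal-only and 122 for both-list peaks.

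**Figure D5:**
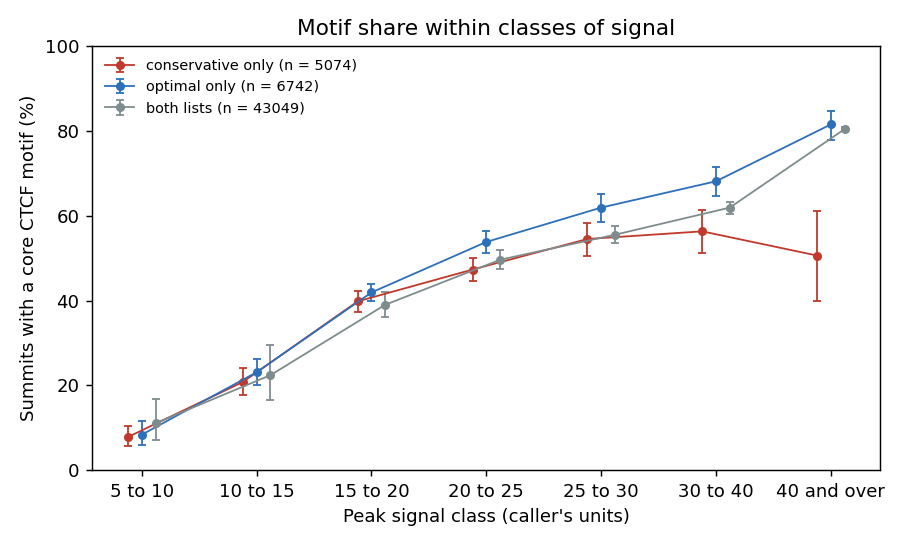
Share of summits with a core CTCF motif (y axis, percent) in 7 classes of peak signal (x axis, the caller's units) for the 3 classes of peak, with 95% Wilson intervals for counting error. The 3 lines run together up to a signal of 20, the optimal-only line is higher from 20 to 40, and the conservative-only line is lowest at 40 and over, with 50.6% of 81 peaks.

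By location, the motif was least frequent at promoters, with 352 of 1600 conservative-only promoter summits, followed by 41.6% in exons, 46.0% in introns and 50.5% (47.8 to 53.3) between genes. The order was the same in peaks of both lists, at 55.0%, 74.2%, 78.6% and 81.4%. Where the best match had 1 mismatch, position 5 of the motif, counted from its 5′ end, was the mismatched one in 38.3% (34.4 to 42.3) of 575 conservative-only summits. In both-list summits that share was 30.2%. Where the best match had 2 mismatches, position 5 was among them in 47.5% (44.9 to 50.2) of 1362 conservative-only and 47.9% (47.1 to 48.8) of 13588 both-list summits, within the counting error. The summit base was repeat-masked in 25.9% (24.7 to 27.2) of conservative-only peaks and 22.4% of both-list peaks, without matching for signal. In each signal class below 40 the intervals of these classes overlapped. At 20 to 25 the repeat-masked shares were 27.9% (25.5 to 30.4) for conservative-only and 28.4% (26.5 to 30.4) for both-list peaks. Of the repeat-masked conservative-only summits, 60.0% (57.3 to 62.6) had a motif, against 64.7% of optimal-only and 82.9% of both-list ones.

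Base composition within 100 bp of the summit had a median of 51.7% G+C for conservative-only, 49.3% for optimal-only and 50.2% for both-list peaks. Between genes and in introns the medians were 49.8%, 45.8% and 49.3%, so away from promoters the conservative-only peaks resembled the shared peaks in this measure. For signals of 40 and over the medians were 52.7% for conservative-only and 38.8% for optimal-only peaks. Whether base composition has a part in the motif or promoter shares was not tested.

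Among 20807 protein-coding genes on chromosomes 1 to 19, 1415 (6.80%) had a conservative-only summit within 1 kb of a start. Of those genes, 675 (47.7%, 45.1 to 50.3) had no optimal summit at a promoter. An optimal promoter peak was present at 7570 genes (36.4%), and adding conservative-only peaks brought the number to 8245 (39.6%). Within a gene's span and 20 kb on either side, 5720 genes (27.5%) had a conservative-only summit. The nearest start of any gene type belonged to a protein-coding gene for 68.8% of peaks and to a long intergenic RNA for 7.98%.

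Among the genes whose promoter had a conservative-only peak and no optimal one, Taf6l and Mdga1 led, followed by Rprd2 (signal 52.1), the shared promoter of Dusp10, a dual-specificity phosphatase gene, and 1700056E22Rik (49.3), and Taok2, a kinase gene (45.3). Pccb, a subunit gene of propionyl-CoA carboxylase, had 42.6. Zbtb7a, which encodes a repressor of fetal globin genes, had 38.9, and Lin28b, which encodes an RNA-binding protein of the fetal programme of blood cells, had 38.2. The Zbtb7a peak had relative signals of 0.686 and 0.397 and the Lin28b peak 0.841 and 0.227 in replicates 1 and 2, and both carried a motif with 2 mismatches. All of these promoter peaks had the higher relative signal in replicate 1.

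Red cells are a main product of the fetal liver at this age, although the peak lists measure no output. Of 24 globin, membrane and enzyme genes of the red cell, 1 had a conservative-only promoter peak and 9 had one in reach, meaning within the gene or 20 kb of it, to be read against 6.80% and 27.5% of all genes. The promoter was that of Ank1, which encodes the ankyrin that ties the membrane to the spectrin skeleton, with a signal of 35.2, relative signals of 0.671 and 0.287 and no optimal peak. Ank1 held 5 conservative-only peaks in its span. Sptb (beta spectrin) had 4 peaks in reach, of up to 23.4. The alpha globin genes Hba-a1 and Hba-a2 shared 1 peak of signal 14.0 at chr11:32298549-32298864, and Bpgm, which makes the regulator of haemoglobin's oxygen affinity, had 1 of 34.1.

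Of 25 erythroid and blood stem cell factors, 3 had a conservative-only promoter peak and 12 (48.0%) had one in reach, beside 6.80% and 27.5%. The promoters were those of Mecom, a stem cell factor (25.1, 1 mismatch), Runx1, needed for the first blood stem cells (22.2, 3 mismatches), and Lyl1, a partner of Lmo2 (17.7, 4 mismatches). Runx1 alone of these had no optimal promoter peak. Zfpm1, which encodes the GATA1 cofactor FOG-1, had 3 peaks in reach, of up to 44.6. Spi1, which encodes PU.1, had 4 of up to 30.4, and Lmo2 had 1 of 36.7.

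Of 20 genes of heme synthesis and iron transport, 4 had a conservative-only promoter peak and 15 had one in reach, beside 6.80% and 27.5% of all protein-coding genes. Ireb2, which encodes an iron-sensing regulator of messenger RNAs, had a promoter peak of 33.5 with relative signals of 0.327 and 0.641. The enzyme genes of heme synthesis Alad and Cpox had promoter peaks of 24.5 and 19.4. The remaining promoter peak, at Fech, had 5.19, close to the lowest signal of any conservative-only peak (5.17). Tfrc, with a peak in reach, was counted both here and among the red cell genes. In reach of Steap3, an endosomal iron reductase gene, the strongest peak had 34.7, and in reach of Slc25a37, which encodes the iron importer mitoferrin, 27.6. Gene length and the density of neighbours enter such a count, and their part was not tested.

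Hepatocyte and hepatoblast genes had 1 promoter with a conservative-only peak and 9 of 30 genes with one in reach, shares near or below the 6.80% and 27.5% of all genes. The promoter was that of Apoe, a lipoprotein gene, at 17.7. Krt8, a keratin gene of epithelia, had the strongest in reach at 39.8. Among 24 myeloid, megakaryocyte and lymphoid genes 0 promoters and 4 spans (16.7%) were reached, and among 21 endothelial and mesenchymal genes 0 and 5 (23.8%), all below the shares over all genes. Examples were a peak of 29.7 within 20 kb of the macrophage gene Cd68 that lies 2 bp from the start of Eif4a1, and a peak of 35.6, 12889 bp upstream of Stab2, a scavenger receptor gene of sinusoidal endothelium.

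Of 32 imprinted genes, 2 (6.25%) had a conservative-only promoter peak and 6 (18.8%) had one in reach, at or below the 6.80% and 27.5% of all genes. Igf2r, which encodes the receptor that clears IGF2, had 22.1 with relative signals of 0.381 and 0.248, and Inpp5f had 21.9 with 0.312 and 0.232, and neither had an optimal promoter peak. In reach of the noncoding RNA gene Meg3 there was 1 peak of 28.1 with 0 mismatches. Of 39 Hox genes 1 (2.56%) had one in reach, 4467 bp from Hoxb13.

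Of 21 genes of cohesin, its regulators and CTCF partners, 5 had a conservative-only promoter peak and 9 had one in reach, again beside 6.80% and 27.5% of all genes. The promoters were those of Chd8, a chromatin remodeller gene (23.0), Zfp143, a zinc finger factor gene (18.2), Pds5b and Wapl, both cohesin regulators (16.2 and 13.3), and Ctcfl, the germline paralogue of Ctcf (16.0). Zfp143 and Wapl had no optimal promoter peak. Ctcf itself had 2 in reach, of up to 24.7. Of 30 cell cycle and replication genes, 4 had a promoter peak, namely Ccne2 (18.7), Cdt1 (18.6), E2f4 (18.4) and Mcm4 (12.4), and 14 (46.7%) had one in reach. Of 23 neuron and muscle genes, Rbfox3 alone had one at a promoter (20.7), and 4 (17.4%) had one in reach.

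A pair of annotated spans of megabase length held the most conservative-only peaks, Gm20388 with 34 over 4435 kb and Fgfr2, as annotated here, with 19 over 2961 kb, where 336 and 90 optimal peaks also lay. Gse1 had 8 over 353 kb, with signals of 6.29 to 28.9 and 0 motifs. Ccdc88c and Mtmr3 had 6 each over 118 and 114 kb. In Ccdc88c the signals were 5.89 to 26.5 with 0 motifs, and in Mtmr3 13.8 to 25.2 with 2 motifs.

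The most isolated conservative-only peak, at chr8:29290429-29290744, was 1549716 bp from an optimal summit and 70951 bp from Unc5d, a netrin receptor gene. It had a signal of 23.4 and relative signals of 0.285 and 0.381. A pair of peaks, at chr4:90860895-90861210 and chr4:91084030-91084345, lay 1168062 and 1391197 bp from an optimal summit, on the side of Elavl2, a neuronal RNA-binding protein gene. Their signals were 23.9 and 19.2, and each carried a motif with 1 mismatch. A promoter peak of Cntnap5b, a neurexin family gene, was 459762 bp from any optimal summit, with a signal of 15.3 and relative signals of 0.246 and 0.183. These isolated peaks were of usual strength for the class, with both replicates represented at each.

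Neighbouring motif-bearing peaks 20 kb to 1 Mb apart, of which at least 1 was conservative-only, pointed towards each other in 28.5% (26.5 to 30.5) of 1949 pairs. Among 17003 pairs without a conservative-only peak the share was 27.5% (26.8 to 28.1), within the counting error. Pairs pointing apart made up 22.2% and 22.6%. Across chromosomes, conservative-only peaks made up between 9.26% (chromosome 1) and 11.2% (chromosome 2) of the conservative list.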

How the data were processed

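The 2 ChIP-seq libraries are described by 5 peak lists on mm10, in narrowPeak form. The authors called peaks against a control and deposited 300000 peaks for each replicate and for the pool, plus the optimal and conservative IDR lists, per the file headers and labels; the caller, the aligner and the IDR settings were not given in the sources used here. Per peak, the authors' signal is an enrichment value from the caller, their score runs up to 1000, and the -log10 q value was used here for nothing. The lists give no read counts, so depth is unknown and no depth-based precision can be given.

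Summits (start plus offset) were compared with Python 3.11.15, numpy 2.4.6, pandas 2.3.3, scipy 1.17.1 and pysam 0.24.0. Locations came from the GENCODE M21 annotation and sequence from RefSeq's GRCm38 assembly. Figures were drawn with matplotlib 3.10.9, and the functions were tested on simulated data. Shares carry 95% Wilson intervals.

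Named regions were the 10 strongest and 3 weakest conservative-only peaks, those nearest the 100 bp limit, up to 3 promoters or 2 spans per gene list, and the 5 genes with most peaks; further list genes, the most isolated peaks, promoters without an optimal peak and the Crb2 pair were chosen after their values were seen. The regions and the 11 gene lists were chosen with earlier results of these data known. Alternatives were other distances, windows, mismatch limits and each replicate alone, which except for relative signal meant sites among its strongest peaks. Splitting the other classes by replicate was added after seeing the data.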

Additional observations from a re-analysis of the deposited data

Results flagged for a closer look

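Outside chromosomes 1 to 19, which the comparisons above do not use, 85 further peaks stood in the conservative list with no optimal summit within 100 bp. Of these, 83 lay on chromosome X, 0 on Y and 2 on unplaced scaffolds. Their median signal was 19.1, beside 19.4 on chromosomes 1 to 19.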

How the results depend on the processing

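Of 46 alternative values, 19 stayed within the interval of the main value (for counts, within 1.5 times) and 27 moved. The number of conservative-only peaks went from 5074 to 4425 at a 500 bp limit and 4568 without overlapping intervals. Promoter share (31.5%) was 30.1% for peaks above the median signal, 24.5% and 55.3% with windows of 500 bp and 5 kb, 24.4% with 1 start per gene, and 26.3% to 35.1% by single replicates. Intergenic share (25.4%) was 27.0% and 18.9% with those windows and 24.2% to 28.4% by single replicates. Motif share (39.3%) was 12.5% and 66.8% with at most 1 and 3 mismatches, 26.4% and 46.1% with windows of 25 and 100 bp, 42.3% without overlapping intervals, 50.3% above the median signal, and 42.1% to 54.6% by single replicates. Median signal (19.4) was 19.9 without overlapping intervals, 24.0 above the median, 23.8 to 24.7 by single replicates, with a mean of 20.02. Mean relative signal (0.284) ran from 0.246 to 0.321 by single replicates and was 2.30 against the median of all 300000 peaks. The median distance was 4628 bp between intervals, genes with a promoter peak numbered 2431 with a 5 kb window, and median G+C was 54.5% within 50 bp. Except where the construction shows it (a wider window, a looser match, fewer peaks), the cause was not tested. No paired analysis was possible because both replicates belong to 1 group.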
